A study of Mus musculus with 14 samples.

Results

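Accessibility at the loci of 3 genes that mark excitatory neurons, Camk2a, Prox1 and Neurod2, was followed by ATAC-seq in neuronal nuclei sorted from mouse hippocampus. Members were all regions of the deposited table that overlap chr18:61065000-61165000 (Camk2a), chr1:191910000-192030000 (Prox1) or chr11:98160000-98220000 (Neurod2) on the mm9 build, whatever their values. This gave 41 of 191271 regions, 28 for Camk2a, 4 for Prox1 and 9 for Neurod2. The 14 libraries form 4 groups by title, with 4 Basal, 3 Early, 4 Late and 3 Reactivated libraries. All groups share the strain label ArcCreERT2 x R26R-STOP-floxed-eYFP and the genotype label +/+, a dose of 4-hydroxytamoxifen before contextual fear conditioning, and a foot shock on day 0. The CreERT2 recombinase is driven by Arc, a gene switched on by neuronal activity, and the reporter marks cells in which it was active near the dose. The treatment labels of Basal and Early are identical, with collection on day 0 and no recall, and the labels do not say which sorted nuclei each holds. Late nuclei were collected on day 5 without recall. Reactivated nuclei had recall on day 5, and replicates 1, 2 and 3 were collected on days 5, 6 and 7. Tissue of several mice was pooled for each group, and the labels do not tie libraries to mice, so p-values reflect only how far these libraries scatter, which may be technical.

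Camk2a encodes the alpha subunit of calcium/calmodulin-dependent protein kinase II, an abundant synaptic kinase of forebrain excitatory neurons that is needed for long-term potentiation. Prox1 encodes a homeodomain transcription factor that specifies and marks granule cells of the dentate gyrus. Neurod2 encodes a basic helix-loop-helix transcription factor of differentiating and mature excitatory neurons that binds E-boxes. In ATAC-seq a transposase inserts adapters into open DNA, so the number of reads at a promoter or enhancer reports how open it is. In sorted pools of nuclei, a change in the share of a cell type and a change in openness per cell cannot be told apart. Loci of interneuron and glial markers were not analysed here because no mm9 annotation was used, so the excitatory identity of the nuclei was not checked against them.

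The promoter sequences of both transcription factor genes are shown because the members that fell in Late lie in the windows of these genes and because Neurod2 itself binds E-boxes. They are from RefSeq on GRCm38.p6, from 250 bases before to 50 bases after the annotated start, on the minus strand as the table gives it. Entries matched for 2 of the 3 genes. Capitals mark the E-box letters CANNTG, which read alike on both strands.
Prox1, chr1:190170778-190171077: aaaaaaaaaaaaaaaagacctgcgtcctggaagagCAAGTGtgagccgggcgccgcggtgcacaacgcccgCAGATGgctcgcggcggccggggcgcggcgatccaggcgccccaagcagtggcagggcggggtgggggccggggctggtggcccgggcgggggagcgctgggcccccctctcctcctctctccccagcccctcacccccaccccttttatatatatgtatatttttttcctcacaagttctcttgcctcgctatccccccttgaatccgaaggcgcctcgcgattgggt
Prox1, second start, chr1:190169466-190169765: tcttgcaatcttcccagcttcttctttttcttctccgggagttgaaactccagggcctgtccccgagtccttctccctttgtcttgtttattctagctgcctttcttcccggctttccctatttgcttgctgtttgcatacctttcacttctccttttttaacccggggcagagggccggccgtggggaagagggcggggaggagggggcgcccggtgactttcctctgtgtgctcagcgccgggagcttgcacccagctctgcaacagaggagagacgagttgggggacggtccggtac
Neurod2, chr11:98329596-98329895: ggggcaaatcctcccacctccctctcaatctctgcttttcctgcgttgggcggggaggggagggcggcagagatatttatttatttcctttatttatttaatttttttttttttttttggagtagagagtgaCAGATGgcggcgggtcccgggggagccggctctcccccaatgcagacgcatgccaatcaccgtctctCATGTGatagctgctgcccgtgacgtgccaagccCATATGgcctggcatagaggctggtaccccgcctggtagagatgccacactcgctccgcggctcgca
The first Prox1 promoter held 2 E-boxes, CAAGTG and CAGATG, whose first bases lie at -215 and -179 from the start site. The second Prox1 promoter held 0. The Neurod2 promoter held 3, CAGATG at -118, CATGTG at -51 and CATATG at -17. At least 1 match to CANNTG was present in 72.3% of the 32817 promoters of 300 bases in the RefSeq table, with a median of 1. CAGATG or its reverse complement CATCTG, forms that CANNTG includes, were present in 17.2%, and CATATG in 3.92%. The G and C share was 64.3%, 57.3% and 55.3% in the 3 printed sequences against a median of 52.7%. CpG dinucleotides numbered 25, 14 and 16 against a median of 7. These promoters are on another build than the regions, so which region holds which start site was not determined.

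The libraries held 46134253 to 56251676 reads, with 46134253 to 47375212 in Late and 54257222 or more in every other library. Read total thus went with the Late group, and its effect was not tested. From 13.2% (Basal replicate 3) to 27.8% (Early replicate 2) of the reads fell in the regions of the table. Since a higher share raises RPKM over the table as a whole, each locus is given both in RPKM and relative to the read density over all regions of the same library. Member regions held 9 to 681 reads per library at Camk2a, 12 to 138 at Prox1 and 10 to 145 at Neurod2, so counting error is largest at the narrow ones. Fold changes below are on the scale of log2(RPKM + 0.5), which understates changes of low regions, and carry the standard error (SE) of the model fit.

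The loci differed in how densely they were covered. At Camk2a 28 regions lay in 100 kb, where the median of 100-kb bins with any region was 7 and 0.0698% of bins held 28 or more. Prox1 had 3.33 regions per 100 kb and Neurod2 15. Camk2a regions covered 18.7 kb and were 187 to 1472 bases wide with a median of 565, close to the median of 520 over the table. All 28 stood above the median of the table in mean level over the 14 libraries, from the 81.2nd to the 99.6th percentile, and 23 stood above the 90th. The 4 Prox1 regions stood between the 13.4th and the 77.8th percentile, and the 9 Neurod2 regions between the 4.72nd and the 94.3rd. RPKM is per length, so a broad region with the same number of reads as a narrow one stands lower. Of the 41 members 40 passed the filter on low values, and chr11:98181779-98183064 at Neurod2, with 0.354 to 0.713 RPKM in the 4 group means, did not. In the RefSeq gene order of GRCm38.p6, Camk2a lies between Arsi and Slc6a7, Prox1 overlaps the antisense gene Prox1os, and Neurod2 lies between Cdk12 and Gm33099. Regions near the window borders may thus belong to a neighbouring gene, and the reads do not tell Prox1 from Prox1os.

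**Figure D1:**
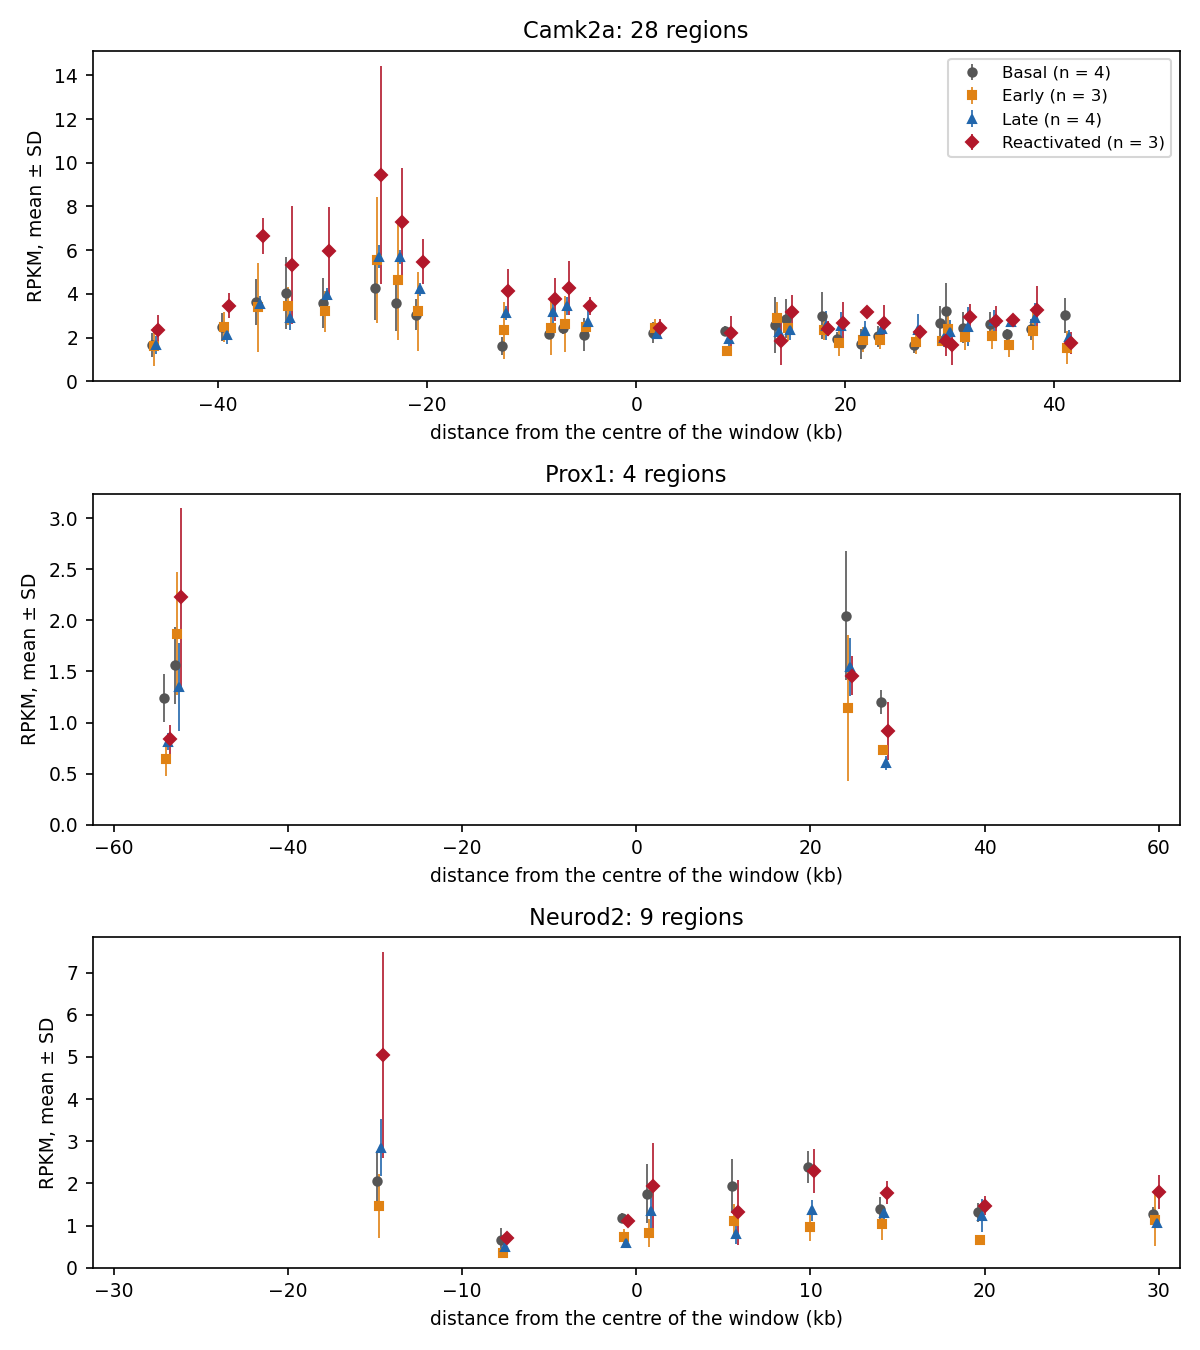
Mean RPKM with SD over libraries (y axis) of each member region against its distance from the centre of its window in kb (x axis), by group, with 4 Basal, 3 Early, 4 Late and 3 Reactivated libraries. Camk2a levels are highest left of the centre, the 4 Prox1 regions form 2 pairs, and the Neurod2 region at the left has the highest Reactivated mean of its locus, 5.04 RPKM.

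Summed over its regions, each locus had its own order of groups. Read density at Camk2a was 3.00, 2.17, 2.31 and 2.91 RPKM in Basal replicates 1 to 4, 1.80, 3.51 and 2.12 RPKM in Early replicates 1 to 3, 2.65, 3.11, 3.12 and 3.03 RPKM in Late, and 4.88, 3.13 and 3.47 RPKM in Reactivated. The order of means was Early (2.48 ± 0.908 RPKM, SD, n = 3), Basal (2.59 ± 0.419, n = 4), Late (2.98 ± 0.222, n = 4) and Reactivated (3.83 ± 0.925, n = 3). Reactivated libraries lay above all Basal and all Late libraries, by the narrowest of margins over Late (3.13 against 3.12 RPKM), and all other pairs of groups overlapped. The log2 difference of Early from Basal, -0.11, was 0.088 without Early replicate 1 and -0.39 without Early replicate 2, so the order of these neighbours rests on single libraries. That of Reactivated from Late, 0.34, was 0.15 without Reactivated replicate 1, the only Reactivated library collected on day 5. Relative to all regions of the same library, the density was 2.02 ± 0.171 in Basal, 1.52 ± 0.0809 in Early, 1.90 ± 0.103 in Late and 2.02 ± 0.399 in Reactivated. On that scale the 3 Early libraries lay below all others, and Reactivated no longer stood apart from Basal or Late. In RPKM the log2 difference of Reactivated from Basal was 0.55, and 0.36 without Reactivated replicate 1. Relative to all regions it was -0.018 with all libraries.

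Prox1 density was 1.50, 1.15, 1.27 and 1.43 RPKM in the Basal libraries, 0.628, 0.942 and 0.886 RPKM in Early, 0.846, 0.785, 0.825 and 0.912 RPKM in Late, and 1.19, 0.794 and 1.12 RPKM in Reactivated. Every Early and Late library lay below every Basal library, and Reactivated overlapped with all 3 other groups. Means were 1.34 ± 0.157 RPKM in Basal, 0.819 ± 0.167 in Early, 0.842 ± 0.0530 in Late and 1.03 ± 0.211 in Reactivated. Early and Late differed by less than the spread of Early. Relative to all regions the density was 1.05 ± 0.104 in Basal, 0.522 ± 0.0956 in Early, 0.537 ± 0.0395 in Late and 0.544 ± 0.0784 in Reactivated. On this scale all 10 libraries outside Basal lay between 0.414 and 0.605 and the Basal libraries between 0.947 and 1.18.

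Neurod2 density was 1.27, 1.14, 1.49 and 1.43 RPKM in Basal, 0.562, 0.911 and 0.951 RPKM in Early, 0.769, 1.07, 1.00 and 1.00 RPKM in Late, and 1.96, 1.33 and 1.27 RPKM in Reactivated. Early and Late again lay below every Basal library, with means of 0.808 ± 0.214, 0.961 ± 0.133 and 1.33 ± 0.157 RPKM. The Reactivated libraries (1.52 ± 0.383 RPKM) lay above all Early and all Late libraries and overlapped with Basal. Relative to all regions the means were 1.06 ± 0.242 in Basal, 0.512 ± 0.121 in Early, 0.611 ± 0.0760 in Late and 0.801 ± 0.176 in Reactivated. Reactivated then stayed above Early without overlap, and overlapped with Late and Basal. The densities sum members chosen with earlier results known, so no test was applied to them.

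**Figure D2:**
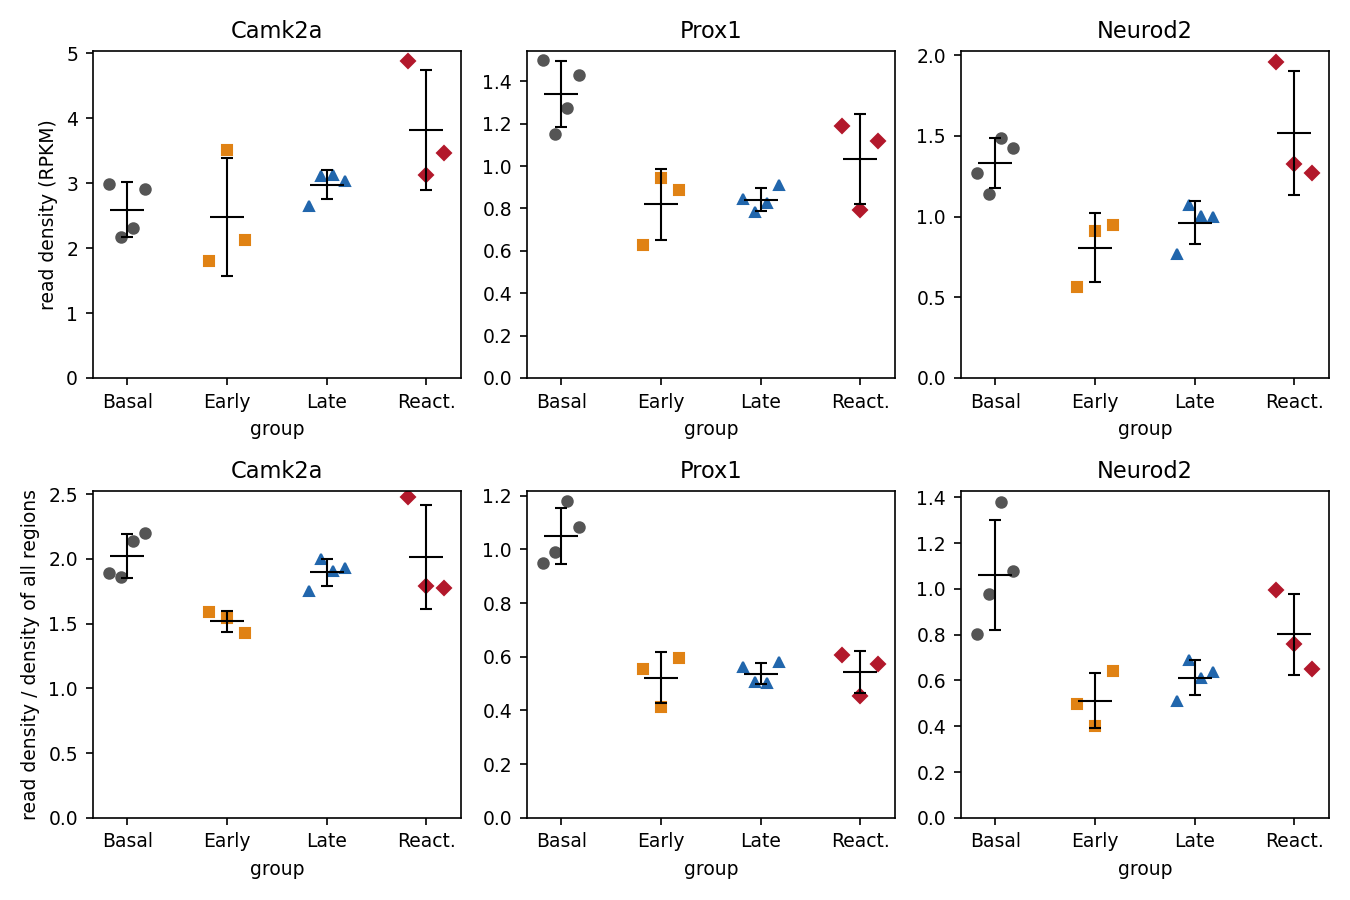
Read density over all member regions of each locus in every library (points), with group means and SD (black bars), in RPKM in the upper row and divided by the density of all regions of the same library in the lower row. React. stands for Reactivated. In the lower row the Prox1 means are 1.05 in Basal and between 0.522 and 0.544 in the other 3 groups, while the Camk2a means of Basal, Late and Reactivated lie between 1.90 and 2.02.

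At Camk2a the called rises lay mostly in the first 50 kb of the window. In Reactivated against Basal 5 of 28 regions were called higher, where 24.3% of all tested regions were. In Late against Basal it was 1 of 28, where 23.9% of all tested regions were. The region of smallest adjusted p was chr18:61101942-61102934, 992 bases wide. It had 1.73, 1.17, 1.47 and 2.12 RPKM in Basal, 1.45, 3.85 and 1.69 RPKM in Early, 3.00, 3.58, 2.89 and 2.96 RPKM in Late, and 5.11, 3.08 and 4.20 RPKM in Reactivated. All Late and Reactivated libraries lay above all Basal libraries, and in Early only replicate 2 did. The region rose in Late (log2 fold change 0.78 ± 0.26 SE, limma, Benjamini-Hochberg adjusted p = 0.0267) and in Reactivated (1.12 ± 0.28, adjusted p = 0.00862). Both comparisons share the Basal libraries. The rise in Reactivated kept its call in 22 of 22 alternative settings (adjusted p 0.000947 to 0.0390). A fit with the in-region read share as covariate called 0 of all regions in Reactivated against Basal, and one with Late averaged to 1 sample called 0 in Late against Basal, so these settings bear on no single region and are left out of such counts. The rise in Late kept it in 15 of 22 (adjusted p 0.00412 to 0.0904), and was lost without Basal replicate 2 or 3, without any 1 of the 4 Late libraries, and with a replicate block.

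The most open Camk2a region was chr18:61090059-61090475, 416 bases wide and at the 99.6th percentile of the table. Its values were 5.45, 2.61, 3.50 and 5.49 RPKM in Basal, 3.19, 8.77 and 4.70 RPKM in Early, 5.33, 5.21, 6.04 and 6.24 RPKM in Late, and 15.2, 6.56 and 6.56 RPKM in Reactivated. Reactivated lay above Basal without overlap, while Early and Late overlapped with Basal. It rose in Reactivated against Basal (log2 fold change 1.01 ± 0.35 SE, limma, adjusted p = 0.0360) and not past the threshold in Late (0.43 ± 0.32, adjusted p = 0.315). In its neighbour chr18:61092002-61092671 the 4 Late libraries were also all above Basal, at 5.38 to 6.12 RPKM against 2.23 to 5.10, with an adjusted p of 0.104, and Reactivated rose (log2 fold change 0.94 ± 0.33 SE, limma, adjusted p = 0.0370). The third region of highest mean, chr18:61078518-61079392, stood at 4.87, 2.85, 2.70 and 4.13 RPKM in Basal and 7.57, 6.49 and 5.95 RPKM in Reactivated (0.82 ± 0.31, limma, adjusted p = 0.0478). Its Late values of 3.21 to 3.89 RPKM lay inside the Basal range. These 3 rises kept their call in 14, 13 and 5 of 22 settings (adjusted p up to 0.222). All 3 lost it after median-of-ratios scaling, after quantile normalization, with a replicate block, with Late averaged to 1 sample, and without any 1 of Basal replicates 2 and 3 and Reactivated replicates 1 and 3.

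In the last 50 kb of the window the 16 regions had a median log2 fold change of 0.13 in Reactivated against Basal. It was 0.67 over the 12 regions of the first 50 kb, all 12 of which were positive. Over all tested regions it was 0.39. Over tested regions under 1500 bases and above the 80th percentile in level, as every Camk2a region is, it was 0.60. In Late against Basal the medians were 0.00 in the last 50 kb and 0.36 in the first. Over all regions that median was 0.28, and over the same class 0.32. The window was divided after its values had been seen, and no test was applied. Among the 16, chr18:61136608-61136936, named after its values were seen, rose in Reactivated, from 1.24, 2.70, 1.29 and 1.63 RPKM in Basal to 3.20, 3.26 and 3.09 RPKM (log2 fold change 0.78 ± 0.26 SE, limma, adjusted p = 0.0292), and kept the call in 12 of 22 settings. At the far end chr18:61156152-61156450 fell in Early. Its values were 4.08, 3.15, 2.60 and 2.23 RPKM in Basal, 1.48, 2.35 and 0.804 RPKM in Early, 1.81, 1.75, 2.41 and 2.14 RPKM in Late, and 1.55, 2.35 and 1.42 RPKM in Reactivated. Early overlapped with Basal by 1 library on each side (log2 fold change -0.82 ± 0.27 SE, limma, adjusted p = 0.0487), and the call held in 5 of 23 settings. The widest Camk2a region, chr18:61084575-61086047, of 1472 bases, had 3.57 ± 1.15 RPKM in Basal, 3.21 ± 0.938 in Early, 3.95 ± 0.315 in Late and 5.95 ± 2.01 in Reactivated, and did not pass in any comparison (smallest adjusted p 0.0801).

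By library, Reactivated replicate 1 was the highest Reactivated library in 21 of the 28 Camk2a regions and Early replicate 2 the highest Early library in 23. The median coefficient of variation over the 28 regions was 27.7% in Basal, 30.0% in Early, 16.9% in Late and 27.2% in Reactivated. Reactivated replicates 1, 2 and 3 were collected on days 5, 6 and 7. Replicate spread and collection day thus cannot be told apart in Reactivated. Ranks within a library do not depend on its scaling. The median over Camk2a regions of the mean percentile rank was 92.1 in Basal, 84.2 in Early, 88.4 in Late and 89.4 in Reactivated, and Early had the lowest mean rank in 16 of 28 regions.

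At Prox1 the 4 regions form 2 pairs, one at each side of the window. In the left pair chr1:191915365-191916963, of 1598 bases, had 1.45, 0.911, 1.30 and 1.29 RPKM in Basal, 0.461, 0.680 and 0.784 RPKM in Early, 0.768, 0.719, 0.872 and 0.892 RPKM in Late, and 0.834, 0.692 and 0.980 RPKM in Reactivated. Basal was higher than all Early and all Late libraries, and only Basal replicate 2 fell within the Reactivated range. It fell in Early (log2 fold change -0.61 ± 0.20 SE, limma, adjusted p = 0.0494), a call that held in 5 of 23 settings. Its narrow neighbour chr1:191917256-191917522 overlapped among all groups, at 1.56 ± 0.377 RPKM in Basal, 1.87 ± 0.604 in Early, 1.35 ± 0.430 in Late and 2.22 ± 0.880 in Reactivated.

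The right Prox1 pair held the widest region of the locus, chr1:191997584-191999435, of 1851 bases. Its values were 1.14, 1.15, 1.12 and 1.37 RPKM in Basal, 0.727, 0.727 and 0.737 RPKM in Early, 0.617, 0.644, 0.502 and 0.644 RPKM in Late, and 1.19, 0.627 and 0.936 RPKM in Reactivated. The 7 Early and Late libraries all lay below the 4 Basal libraries, and Reactivated spanned the gap. It fell in Late (log2 fold change -0.63 ± 0.18 SE, limma, adjusted p = 0.0151) and kept that call in 22 of 22 settings (adjusted p 0.000901 to 0.0482). The fit with Late averaged to 1 sample is not among these settings. In Early the change was -0.46 ± 0.20 (limma, adjusted p = 0.121) although the groups did not overlap. By rank within the library this region stood at a mean percentile of 60.7 in Basal, 18.6 in Early, 8.8 in Late and 23.7 in Reactivated. The other region of the pair, chr1:191994149-191994658, had 2.05 ± 0.630 RPKM in Basal, 1.15 ± 0.715 in Early, 1.54 ± 0.287 in Late and 1.46 ± 0.191 in Reactivated, with overlap throughout. After median-of-ratios scaling, which sets the typical region equal between libraries, 3 of the 4 Prox1 regions were lower than in Basal in each of Early, Late and Reactivated (limma, adjusted p 0.00152 to 0.0223), where 6.85%, 16.4% and 10.7% of all regions were.

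At Neurod2, 2 regions fell in Early, 3 fell in Late and 1 rose in Reactivated, all against Basal and of 8 tested. Over all regions 1.44% were lower in Early, 6.03% lower in Late and 24.3% higher in Reactivated. The widest region, chr11:98188432-98190311, of 1879 bases, had 1.03, 1.20, 1.19 and 1.31 RPKM in Basal, 0.579, 0.677 and 0.932 RPKM in Early, 0.413, 0.681, 0.629 and 0.646 RPKM in Late, and 1.26, 1.01 and 1.06 RPKM in Reactivated. Early and Late lay below all Basal and all Reactivated libraries, and Basal and Reactivated overlapped. It fell in Late (log2 fold change -0.63 ± 0.18 SE, limma, adjusted p = 0.0143), and this call held in 21 of 22 settings (adjusted p 0.000808 to 0.0509). The call was lost without Late replicate 1, the lowest of the 4. The change between Late and Reactivated was 0.56 ± 0.20 (limma, adjusted p = 0.310). Its level in the 4 groups was thus close to that of the widest Prox1 region in Basal, Early and Late, with means of 1.18, 0.729 and 0.592 RPKM here and 1.20, 0.730 and 0.602 RPKM there.

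The Neurod2 region chr11:98199868-98200175, of 307 bases, showed the largest fall in Early. It had 2.64, 2.16, 1.98 and 2.76 RPKM in Basal, 0.600, 1.08 and 1.20 RPKM in Early, 1.19, 1.48, 1.10 and 1.66 RPKM in Late, and 2.78, 1.74 and 2.34 RPKM in Reactivated, from 10 to 48 reads per library. Early and Late lay below all Basal and all Reactivated libraries. It fell in Early (log2 fold change -0.998 ± 0.24 SE, limma, adjusted p = 0.0128) and in Late (-0.64 ± 0.22, adjusted p = 0.0327). In Early the call held in 22 of 23 settings, the exception being a fit of these 2 groups alone (adjusted p = 0.0518), and in Late in 15 of 22. At chr11:98195346-98195987 the 4 Basal libraries had 2.04, 1.93, 2.67 and 1.12 RPKM and the 4 Late libraries 0.739, 0.541, 1.12 and 0.797 RPKM, with Basal replicate 4 and Late replicate 3 nearly level. It fell in Late (log2 fold change -0.89 ± 0.26 SE, limma, adjusted p = 0.0131), and the call was lost without Basal replicate 3 (adjusted p = 0.0514). The remaining called fall in Early was at chr11:98209493-98210137, named after its values were seen, from 1.32 ± 0.225 RPKM in Basal to 0.649 ± 0.0596 RPKM (log2 fold change -0.65 ± 0.22 SE, limma, adjusted p = 0.0487), which held in 3 of 23 settings. The third region of highest mean, chr11:98190576-98191046, passed in no comparison, with 1.75 ± 0.699 RPKM in Basal and 0.823 ± 0.335 RPKM in Early.

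In the same window chr11:98175113-98175442, of 329 bases, was the most open region. It had 2.58, 1.34, 2.74 and 1.57 RPKM in Basal, 0.672, 2.18 and 1.57 RPKM in Early, 2.09, 3.03, 2.57 and 3.69 RPKM in Late, and 7.83, 3.92 and 3.36 RPKM in Reactivated. Reactivated lay above all Basal and Early libraries, and Late replicate 4 lay within the Reactivated range. The region rose in Reactivated against Basal (log2 fold change 1.07 ± 0.32 SE, limma, adjusted p = 0.0188) and against Early (1.48 ± 0.34, adjusted p = 0.0372). Against Late the value was 0.66 ± 0.32 (adjusted p = 0.436). The call against Basal was lost without Reactivated replicate 1 or Basal replicate 2, after median-of-ratios scaling and after quantile normalization. That against Early was lost in a fit of these 2 groups alone, with a replicate block, with Late averaged to 1 sample, without any 1 of the 3 Reactivated libraries, without Early replicate 1 or 3, and without Late replicate 3. The sign was positive in all 23 settings for both.

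**Figure D3:**
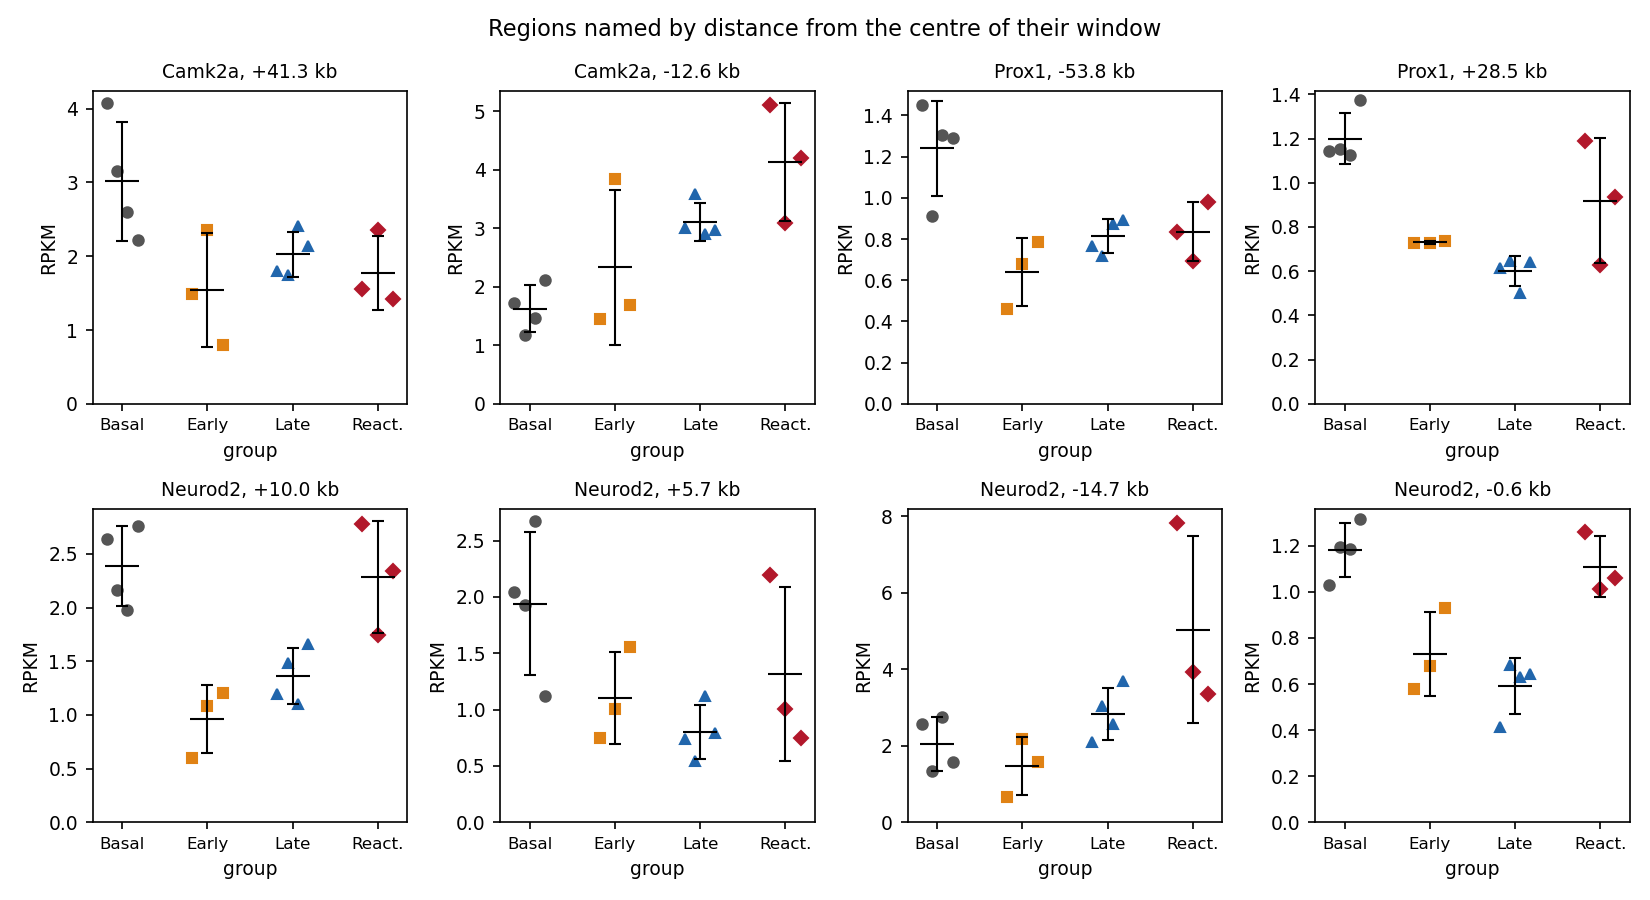
RPKM (y axis) of 8 member regions in every library (points) by group (x axis, React. for Reactivated), with group means and SD (black bars). The title of each panel gives the locus and the distance of the region from the centre of its window. The widest Prox1 region (+28.5 kb) and the widest Neurod2 region (-0.6 kb) both lie lower in all Early and Late libraries than in all Basal libraries, while the Camk2a region at -12.6 kb lies higher in all Late and Reactivated libraries than in Basal.

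Counted over the 3 loci, the members called in Early against Basal were all lower. Of the 40 tested members 0 were higher and 4 lower in Early (limma, adjusted p under 0.05), where over all 172143 tested regions 10.9% were higher and 1.44% lower. At an unadjusted p under 0.05, 0 were higher and 10 lower, against 25.1% and 4.76% of all regions. The 4 were 1 at Camk2a, 1 at Prox1 and 2 at Neurod2, and 3 of them stood at adjusted p of 0.0487 to 0.0494, so leaving out any 1 of the 14 libraries left 1 or 2 calls. The median log2 fold change was -0.09 at Camk2a, -0.54 at Prox1 and -0.53 at Neurod2, against 0.23 over all regions and 0.23, 0.25 and 0.14 over the whole of chromosomes 18, 1 and 11. After median-of-ratios scaling 0 members were higher and 11 lower, with 8.19% and 6.85% of all regions. After quantile normalization the counts were also 0 and 11, with 6.56% and 5.59%.

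Late against Basal gave 1 member higher, at Camk2a, and 4 lower, 1 at Prox1 and 3 at Neurod2, where 23.9% of all tested regions were higher and 6.03% lower. Medians were 0.11 at Camk2a, -0.35 at Prox1 and -0.22 at Neurod2, against 0.28 over all regions. The count was 0 higher and 3 lower without Basal replicate 2, Basal replicate 3, Late replicate 2 or Late replicate 3, and 0 higher and 2 lower without Late replicate 1. After median-of-ratios scaling 1 member was higher and 11 were lower (14.6% and 16.4% of all regions), and after quantile normalization 4 were higher, all at Camk2a, and 8 lower (16.6% and 15.3%).

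Reactivated against Basal gave 6 higher members, 5 at Camk2a and 1 at Neurod2, and 0 lower, where 24.3% of all regions were higher and 4.78% lower. Medians were 0.36 at Camk2a, -0.32 at Prox1 and 0.11 at Neurod2, against 0.39 over all regions. Every Camk2a region is under 1500 bases wide and above the 80th percentile in level. Over all tested regions of that class the median was 0.60, with 33.4% higher and 2.03% lower. The split of the members depended on the scaling. After median-of-ratios scaling 1 member was higher and 8 were lower (8.93% and 10.7% of all regions), and after quantile normalization 1 and 6 (8.03% and 8.48%). The member that stayed higher under both is chr18:61101942-61102934, and under each scaling 3 of the lower members are at Prox1. Without Reactivated replicate 1 the count was 1 higher and 1 lower, without Basal replicate 2 it was 2 higher and 1 lower, and without Basal replicate 3, Reactivated replicate 2 or Reactivated replicate 3 it was 2, 3 and 2 higher and 0 lower. It was 11 higher and 2 lower without Early replicate 2, against 34.7% and 6.02% of all regions, and 11 higher and 1 lower without Early replicate 1, against 31.0% and 5.63%. Those are libraries that enter this comparison only through the filter and the shared estimate of the spread. The filter was kept as set on all 14 libraries, so only the spread changed when they were left out. The comparisons against Basal share its 4 libraries, so their values stand side by side only.

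**Figure D4:**
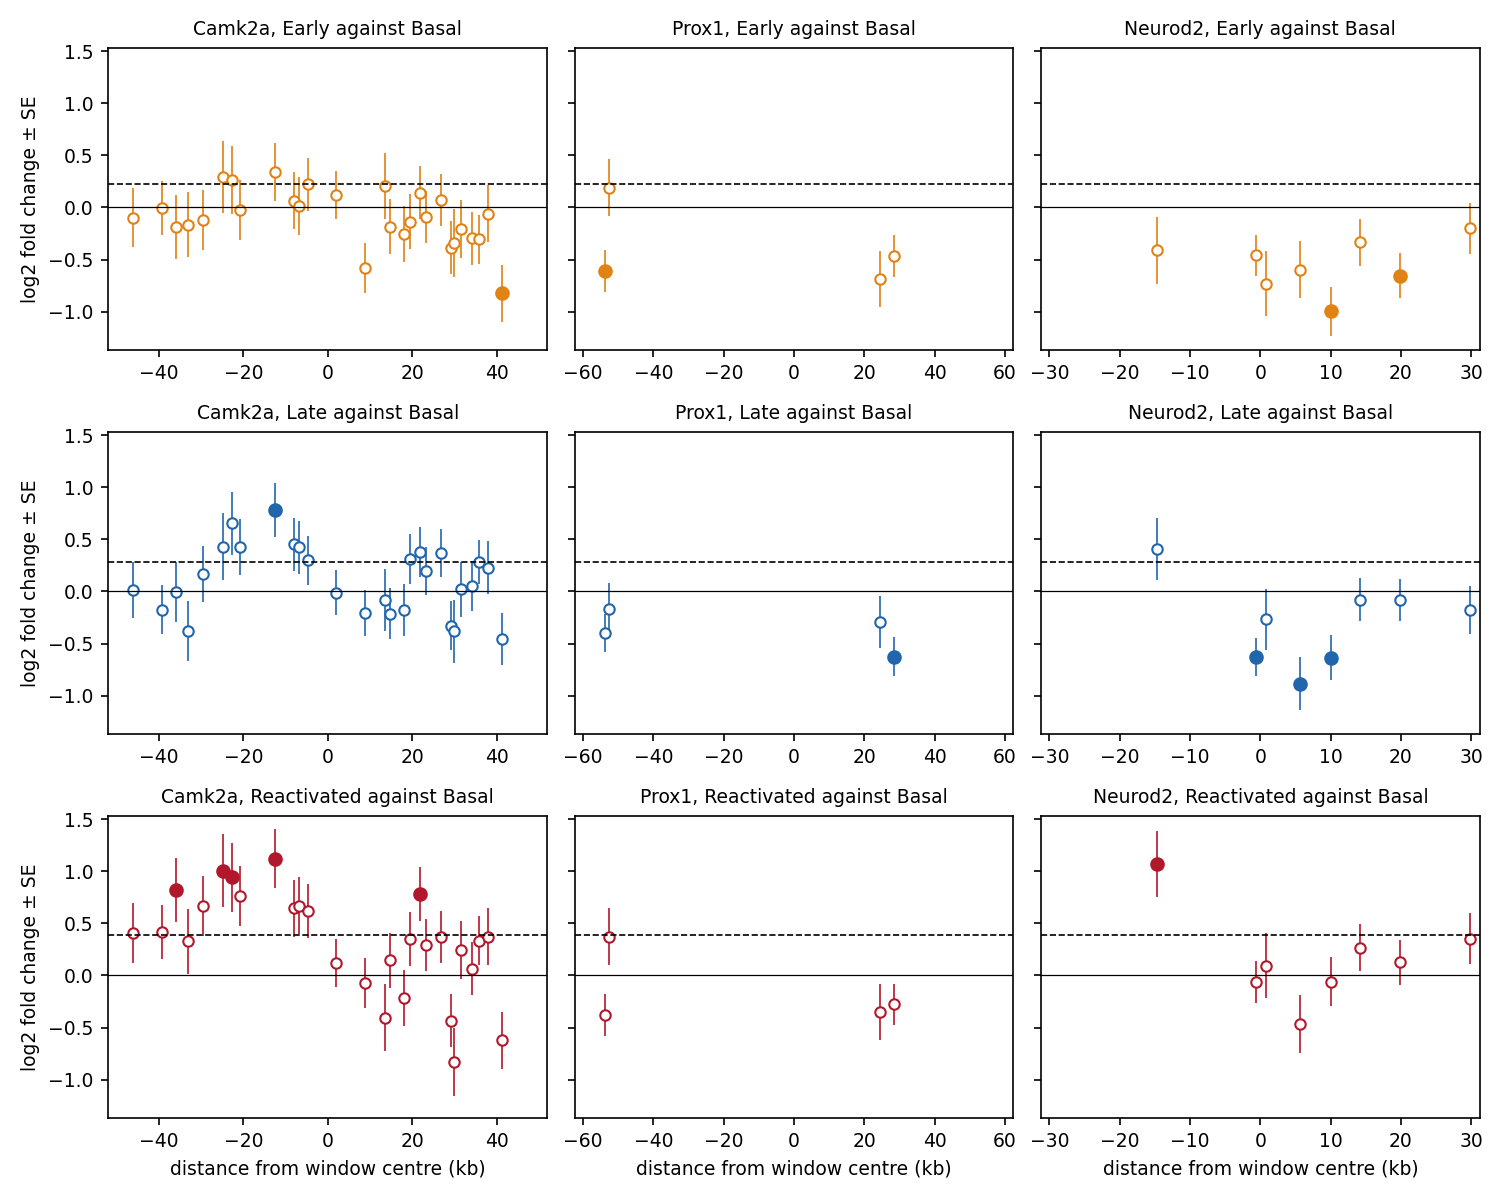
Log2 fold change against Basal with SE (y axis) of each tested member against its distance from the centre of its window in kb (x axis), for Early, Late and Reactivated (rows) at Camk2a, Prox1 and Neurod2 (columns). Filled points passed limma at an adjusted p under 0.05, and the dashed line is the median over all tested regions, 0.23, 0.28 and 0.39 from top to bottom. All 4 filled points in Early lie below 0. In Late the 4 at Prox1 and Neurod2 lie below 0 and the 1 at Camk2a above, and all 6 in Reactivated lie above 0.

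The comparison of Reactivated with Late sets recall beside no recall, and here 0 members were called (limma), where 0.231% of all regions were. At an unadjusted p under 0.05, 7 members were higher and 0 lower, 3 at Camk2a and 4 at Neurod2, against 7.59% and 3.75% of all regions. In 11 members all Reactivated libraries lay above all Late libraries, and in 0 below, where 13.5% of all tested regions lay above and 5.03% below. The median log2 fold change was 0.21 at Camk2a, 0.18 at Prox1 and 0.47 at Neurod2, against 0.09 over all regions. Over the class of high regions under 1500 bases that holds every Camk2a region it was 0.25. All 8 tested Neurod2 members had a positive value, from 0.21 to 0.66. Camk2a showed values from -0.44 to 0.83, with chr18:61078518-61079392 at the upper end (3.54 ± 0.355 RPKM in Late and 6.67 ± 0.824 in Reactivated, limma, adjusted p = 0.330). Under quantile normalization the Camk2a median was -0.17.

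Late against Early gave 0 calls among the members (limma), where 0.414% of all regions were called. At an unadjusted p under 0.05, 3 were higher and 0 lower, against 6.98% and 5.81% of all regions, so the share of higher members was near that of the table. Without Early replicate 2, 3 were higher (5.00% of all regions), and after quantile normalization 4 were higher (1.53% of all regions). Reactivated against Early gave 1, the Neurod2 region described above, where 0.944% of all regions were higher and 0.417% lower. At an unadjusted p under 0.05, 13 members were higher and 0 lower, against 13.2% and 6.26% of all regions. Without Early replicate 2, the library with the largest share of reads in regions, 14 members were higher, against 14.5% of all regions. After either scaling 3 were higher, where 1.88% (median-of-ratios) and 1.83% (quantile) of all regions were. Medians in this comparison were 0.47 at Camk2a, 0.21 at Prox1 and 0.69 at Neurod2, against 0.11 over all regions. Over the class of high regions under 1500 bases that holds every Camk2a region the median was 0.23.

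Stretches of the same length directly before and after each window were read in the same way. Of 15 regions before the Camk2a window 7 were higher and 1 was lower in Reactivated against Basal (median 0.73). Of 10 after it 2 were higher and 0 lower (median 0.27). Inside the window 5 of 28 were higher and 0 lower (median 0.36), so the share of higher calls was larger in the stretch before it. Over all regions 24.3% were higher and 4.78% lower. Before the Prox1 window 11 regions had 0 higher and 3 lower in Late, with a median of -0.46, and after it 9 regions had 1 higher and 0 lower, with a median of -0.17. Around Neurod2 the 4 tested regions before had 0 calls in Late and the 5 after had 1 lower, with medians of 0.06 and 0.08. Other differences did not end at the borders of this window. In Reactivated against Early the medians were 0.62 before, 0.69 inside and 0.78 after. In Early against Basal they were -0.13 before, -0.53 inside and -0.30 after. The widest members of Prox1 and Neurod2 were set beside other broad regions. Over the table, tested regions of 1500 bases or more, a class chosen after these values were seen, were called lower in 1.35% and 2.02% of cases in Early and Late, and higher in 5.18% and 13.7%, with median log2 fold changes of 0.14 in both. Their median was thus positive, where the 3 members of this width, 2 at Prox1 and 1 at Neurod2, had values of -0.63 to -0.40. The class was matched on width only, and all 3 members stood far below the median of the table in mean level. Whether broad regions of such low level also fell was not tested, so the contrast may reflect level.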

How the data were processed

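ATAC-seq of sorted neuronal nuclei from mouse hippocampus was available as 1 table of RPKM values (reads scaled to region length and library read total) for 191271 regions and 14 libraries, as the authors deposited it. The build mm9 and the tools DESeq2, DiffBind, MACS2, SAMtools and Bowtie2 2.0 appear, with roles unstated, per the submitters' processing notes. Region calling, duplicate removal and any shift of cut sites are steps not given in the sources used here. The RPKM values of each deposited library were whole multiples of 1 read within 0.01, which gave the read totals.

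Libraries were matched to groups by title. Tests were run with limma 3.58.1 in R 4.3.3 (trended, robust) on log2(RPKM + 0.5) in 1 fit of all 14 libraries, after leaving out the 10% of regions of lowest mean RPKM. P-values were Benjamini-Hochberg adjusted over 172143 regions, with a threshold of 0.05. The fit was tested on simulated data of 172143 regions, few of which were changed. For Late against Basal the share called was 2% at a fold of 2 and 96% at a fold of 4. The simulated Reactivated against Late comparison gave 8% and 98% at these sizes. In the measured Late against Basal 23.9% of regions were called higher, so the adjusted threshold was stricter in the simulation. Its shares thus do not give the power of the measured comparisons against Basal. Named for each locus were the 3 regions of highest mean, the widest, and the called region of smallest adjusted p in each direction and comparison, 15 in all. The windows, members and this rule were chosen with earlier results of these data known. Read density is the sum of reads over a locus' regions on the same scale.

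Alternatives were pseudocounts of 0.1 and 1, no filter, median-of-ratios scaling, quantile normalization, a fit of only the 2 groups compared, a replicate block, the in-region read share as covariate, Late averaged to 1 sample, and leaving out each library. Replicate numbers do not pair the libraries, as the closing section gives. A count test on the recovered reads was planned and not run, since the values are RPKM.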

Additional observations from a re-analysis of the deposited data

Results flagged for a closer look

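Dixon's test at the 95% level was applied to 36 groups of 4 libraries, Basal and Late at the 15 named regions and for the read densities of the 3 loci, and chance marks about 1 in 20 such groups. At chr18:61101942-61102934 (Camk2a) Late replicate 2 stood at 3.58 RPKM, apart from the other Late libraries at 2.89 to 3.00 RPKM, with a gap of 0.852 of the range, above the critical value. At chr1:191997584-191999435 (Prox1) Basal replicate 4 stood at 1.37 RPKM, apart from the other Basal libraries at 1.12 to 1.15 RPKM, with a gap of 0.880 of the range.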

How the results depend on the processing

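Of 2070 differences of named regions under alternatives, 1909 kept their side of the threshold, 110 lost a call and 51 gained one. In 0 did a difference called in either fit change sign. Changes of sign between uncalled fits count among the 1909. An example is chr18:61084575-61086047 in Late against Basal, at 0.17 and at -0.18 after median-of-ratios scaling. Counts of called members (limma) varied as follows, with counts at an unadjusted p under 0.05 beside counts of 0. Early against Basal, 4 calls, gave 2 with a pseudocount of 1, 2 without the filter, 11 with median-of-ratios scaling, 11 with quantile normalization, 0 with only these 2 groups (6 at unadjusted p), 7 with the in-region share covariate, 1 with Late averaged, and 1 to 2 without single libraries. Late against Basal, 5 calls, gave 12 with either scaling, 0 with Late averaged (0 at unadjusted p, and 0 over all regions), and 2 to 6 without single libraries. Reactivated against Basal, 6 calls, gave 9 with median-of-ratios scaling, of which 1 is among the 6, 0 with the in-region share covariate (6 at unadjusted p, and 0 called over all regions), 2 with Late averaged, and 2 to 13 without single libraries. Late against Early, 0 calls, gave 4 with quantile normalization, 2 with the in-region share covariate, and 0 to 3 without single libraries. Reactivated against Early, 1 call, gave 3 with either scaling and with the in-region share covariate, 0 with only these 2 groups (5 at unadjusted p), 0 with Late averaged (10), and 0 to 14 without single libraries. Reactivated against Late, 0 calls, gave 1 with only these 2 groups. With a replicate block the counts were 1, 3, 2, 0, 0 and 0 in the order Early, Late and Reactivated against Basal, Late and Reactivated against Early, and Reactivated against Late, with 2, 11 and 4 at unadjusted p in the last 3. Over 19 same-numbered pairs of libraries the correlation of deviations from group means was -0.26 to 0.07, and 0 of 14 libraries correlated best with their own number, so the numbers give no pairing. The causes were not tested. Read density differences (log2) under median-of-ratios scaling were -0.19 for Camk2a in Late against Basal and 0.046 in Reactivated against Basal, -1.05, -1.07 and -0.89 for Prox1 and -1.07, -0.88 and -0.33 for Neurod2 in Early, Late and Reactivated against Basal. Under quantile normalization they were 0.024 for Camk2a in Reactivated against Basal and -0.15 against Late, -1.02, -1.11 and -0.83 for Prox1, and -0.88 and -0.31 for Neurod2 in Late and Reactivated against Basal. Narrow regions with as few as 9 reads in a library limit the precision.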

Other observations

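Tested regions on other chromosomes, above the median of the table in mean level, were set beside the most open region of each locus. They were ranked by the Pearson correlation of log2 values after median-of-ratios scaling over the 14 libraries. The values given are the largest of a great many, all from the same libraries, and serve as a description with no test. For chr18:61090059-61090475 at Camk2a the highest were chr2:72619534-72620141 (r = 0.945) and chr9:21301382-21302096 (r = 0.939). For chr11:98175113-98175442 at Neurod2 they were chr17:26260258-26260853 (r = 0.955) and chr9:65543135-65544014 (r = 0.950). For chr1:191917256-191917522 at Prox1 they were chr8:110016646-110017059 (r = 0.897) and chr15:30235967-30236673 (r = 0.882).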
